A study of Mus musculus with 6 samples.

Results

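The comparison set naive CD4+ T cells that had been stimulated for 48 h against cells taken at 0 h, in wild-type (WT) cells and in cells labelled Zak-deficient. It used 4 of the 6 RNA-seq libraries of the series: WT at 0 h, WT at 48 h, Zak-deficient at 0 h and Zak-deficient at 48 h. The libraries were chosen by their labelled time, and each genotype gave 1 pair, so a 48 h library was always read against the 0 h library of its own genotype. The cells came from mice of the C57BL/6 background aged 6 to 8 weeks. T cells were isolated from spleen and lymph nodes, and naive cells (CD4+CD44loCD62Lhi) were sorted by flow cytometry. Anti-CD3 and anti-CD28 antibodies were then used to trigger the T cell receptor (TCR) together with costimulation, and the 0 h cells had no time with these antibodies. The genotype label reads Zak-/-, while the culture description speaks of a deficiency restricted to T cells, and the labels do not resolve which kind of deletion was used. Each group had 1 library, and the labels do not say how many mice gave cells or whether mice were pooled. The genotype pairs stood in for replicates: a p-value therefore measures only the spread between these 2 pairs, which may be partly technical and would also hold any effect of the genotype on the response.

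A naive T cell circulates in a quiescent state, small and metabolically spare, held there by transcription factors such as Klf2, Foxo1 and Tcf7 and by survival signals through the IL-7 receptor. Signals from the TCR and CD28 start a growth phase in which the cell enlarges, raises its ribosome, nucleotide and lipid synthesis and takes up more glucose, amino acids and iron, and then enters the cell cycle. Receptors for lymph node entry and exit are changed during the same period.

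The values were FPKM, fragments scaled for transcript length and for the mapped fragments of the library, and so relative within a library. They summed to between 496045 and 546113 over 18446 genes, and between 1777 and 2793 genes were listed at 0 in the libraries used. The read depth is unknown. Map3k20, the gene that encodes Zak, was listed in WT at 0.17 FPKM at 0 h and 1.35 at 48 h, and in the libraries labelled Zak-deficient at 0.10 and 1.61. The gene-level value cannot show a deleted exon, and at 48 h it did not separate the genotypes, so the second genotype is named by its label throughout. The labelled cell type was looked at on its markers: the 12 markers of CD4 T cells summed to 2508 and 2515 FPKM at 0 h and to 3020.2 and 3066 at 48 h (WT first, then the Zak-deficient label, as in every such pair of values that follows). The sum does not stand for each marker, since 6 of the 12 rose and 4 fell in both genotypes. Cd5 rose from 110.3 and 105.9 to 436.2 and 413.1 FPKM. Cd4 itself fell from 329.1 and 357.2 to 217.6 and 218.6, and Trat1 from 46.1 and 42.8 to 7.64 and 8.86. Of the 12 markers of B cells only 3 passed the filter on low values, and their sum was between 5.7 and 16 FPKM. Of the 2 CD8 markers Cd8a stood at 0.50 to 0.80 FPKM and Cd8b1 at 11.2 and 9.73 at 0 h and 8.11 and 12 at 48 h. In bulk RNA, fewer cells of a type and less RNA per cell cannot be told apart.

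A log2 difference was taken as log2(FPKM+1) at 48 h minus that at 0 h in the same genotype, which understates the change of low genes, and every fold given is on this scale. Genes with a mean of at least 1 FPKM over all 6 libraries were tested with limma, with genotype as the block, and 10347 genes qualified. At an adjusted p under 0.05 alone, 76.9% of them differed, 4159 higher and 3798 lower at 48 h. A gene was called only if it also differed by at least 2-fold in the same direction in both pairs, and the fold rule without the p gave the same numbers of calls. With both criteria 1700 genes (16.4% of those tested) were higher at 48 h and 1052 (10.2%) were lower. Both pairs passed 8-fold for 231 higher and 41 lower genes, and 32-fold for 19 higher and 2 lower genes. An exact permutation test of a single gene in 2 against 2 libraries cannot go below p = 0.33 (two-sided), so the p-values rest on the spread that limma shares across genes. The called genes named here had adjusted p between 4.8e-06 (Nrn1) and 0.0012 (S100a9).

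Over all 10347 tested genes the median size of the difference between the WT and the Zak-deficient response was 0.12 log2 units. Of the 2752 called genes 96.1% differed by less than 0.5 log2 units between the pairs, a share that the call itself favours, since it requires both pairs to move the same way. Only 5 called genes differed by 1 log2 unit or more: Ly6c1, H2-Q6, Rapgef4, H2ac24 and H4c9, listed here after their values were seen. All but Rapgef4, a regulator of Rap GTPases that went from 28.9 and 33 FPKM to 1.21 and 5.38, belong to families of near-identical genes (Ly6, class I and histone genes). Seen in 1 pair at a time, 354 genes passed 2-fold in WT alone and 398 in the Zak-deficient pair alone, and 7 passed it in opposite directions. Called genes also shifted the make-up of the libraries. Those called higher held 6.8% and 6.7% of the FPKM sum at 0 h and 23.0% and 22.3% at 48 h, whereas those called lower went from 14.4% and 14.6% to 3.9% in both. Among the higher genes, 334 were under 1 FPKM in both resting libraries, and these could pass the filter only through their 6 h or 48 h values. Likewise, 84 lower genes were under 1 FPKM in both 48 h libraries and could pass only through their 0 h or 6 h values. At 100 FPKM or more stood 257 higher genes in both 48 h libraries and 157 lower genes in both resting libraries. The median transcript length was 2581 bases for higher genes, 3501 for lower genes and 3046 for all tested, with GC contents of 50.4%, 50.2% and 49.9%.

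**Figure D1:**
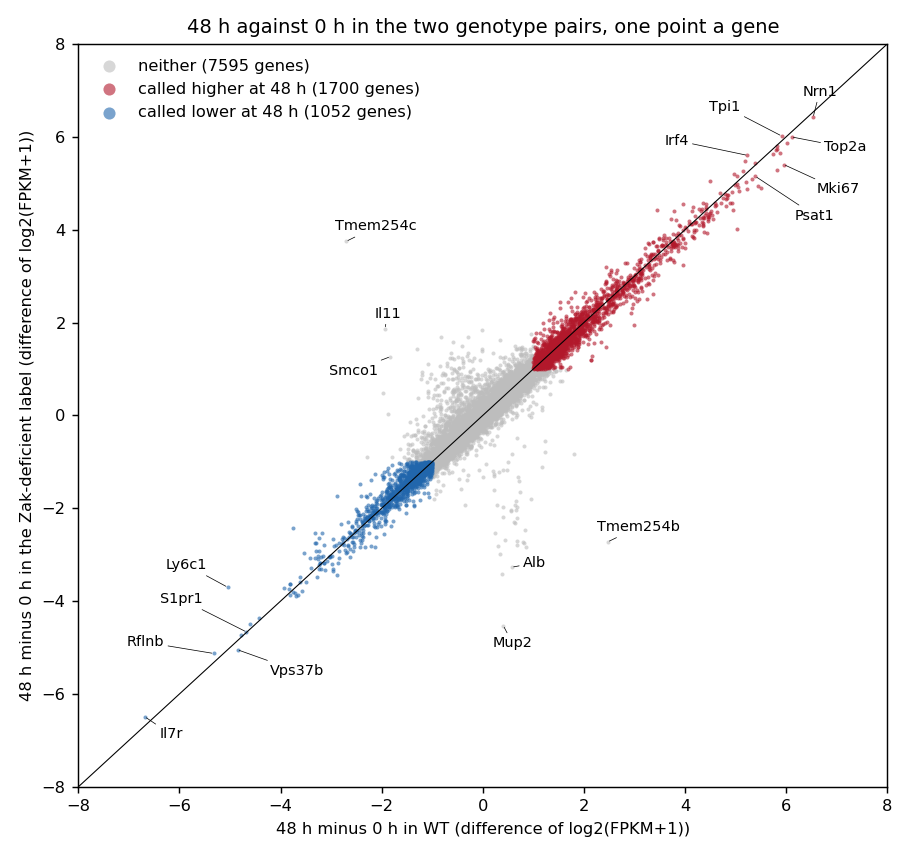
Difference of log2(FPKM+1) between 48 h and 0 h in WT (horizontal axis) and in the Zak-deficient label (vertical axis), with each point a tested gene, red for the 1700 called higher, blue for the 1052 called lower, grey for the rest, and the line marking equal differences. Called genes lie along the line, from Il7r at the lower left to Nrn1 at the upper right, while Tmem254b, Tmem254c, Il11, Smco1, Mup2 and Alb lie far from it.

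The largest increases joined cell division, TCR-response and glycolytic genes. Nrn1, a small membrane-anchored protein first known from neurons, had the largest: it stood at 1.20 and 1.52 FPKM at 0 h and at 202.7 and 215 at 48 h, 89.1-fold higher (SE 0.07 log2 units, adjusted p 4.8e-06, limma). Top2a, the topoisomerase that untangles chromosomes, went from 1.28 and 1.13 to 156.3 and 135.1 FPKM (66.4-fold). Tpi1, a glycolytic isomerase, went from 8.83 and 8.58 to 590.2 and 620.2 FPKM (62.4-fold), although near-identical copies of Tpi1 in the genome make its level uncertain. In all 3 genes both 48 h values lay far above both resting values. Hivep3, a large zinc-finger factor, was at 0.24 and 0.26 FPKM at rest and at 79.8 and 72.9 at 48 h. Spry1, an inhibitor of ERK signalling, was at 0.80 and 0.79 and then at 101.2 and 98.5. The next ranks held Pclaf (a PCNA-binding protein), Uhrf1, Ccna2, Aurkb and Mki67, all cell cycle genes, each between 51.2-fold and 55-fold higher. Egr3, Ifitm2, Irf4, Dusp6 and Psat1 completed the leading 15, at 38.6-fold to 47.1-fold.

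The largest decrease was that of Il7r, the IL-7 receptor alpha chain on which naive T cells depend for survival. It stood at 524.6 and 556.3 FPKM at 0 h and at 4.11 and 5.19 at 48 h, 96.2-fold lower (SE 0.071, adjusted p 4.8e-06, limma). Rflnb, an adaptor that binds filamin, went from 217.9 and 221 to 4.46 and 5.35 FPKM (37.4-fold). Vps37b, a subunit of an endosomal sorting complex, went from 563.6 and 678.4 to 18.6 and 19.5 (30.9-fold). None of these resting values came near a 48 h value. Pde2a, a phosphodiesterase that degrades cyclic nucleotides, was 27-fold lower and S1pr1, the receptor that guides T cells out of lymph nodes, 25.5-fold lower. Pik3ip1 (an inhibitor of PI3 kinase), Ifngr1 (a chain of the interferon gamma receptor), Gramd3, Carns1, Pnpla7 and St8sia6 were 13.5-fold to 14.4-fold lower. Tubb2a, Ly6c1 and Ifit1bl1 also ranked here but have near-identical copies. Ly6c1 differed most between the pairs among these leading genes, with 74.9 against 46.4 FPKM at rest and 1.29 against 2.65 at 48 h.

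**Figure D2:**
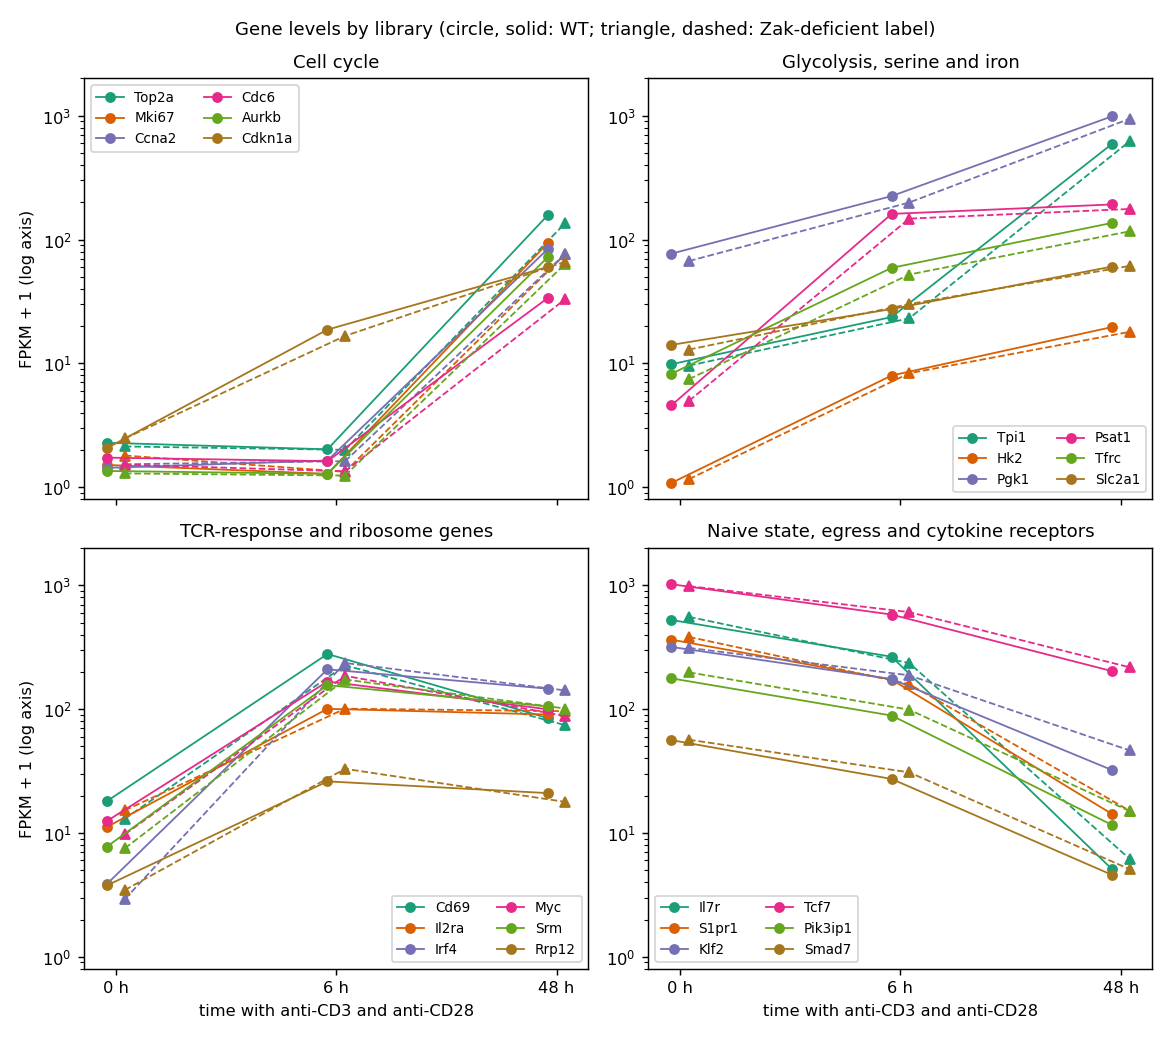
FPKM plus 1 (log axis) of 24 genes in all 6 libraries, with circles and solid lines for WT, triangles and dashed lines for the Zak-deficient label, and the times evenly spaced and not to scale. Cell cycle genes other than Cdkn1a lie near the floor until 48 h, Psat1 and Irf4 are already high at 6 h, and Il7r, S1pr1 and Klf2 fall at each time.

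Genes of DNA replication rose together. Of 50 genes for licensing, the helicase, the polymerases and their accessory factors, 41 were called higher and 0 lower, with a median log2 difference of 2.12 in WT and 2.18 in the Zak-deficient pair, against 0.001 and 0.058 over all tested genes. The licensing factor Cdc6 was at 0.73 and 0.52 FPKM at rest and at 32.7 and 32.1 at 48 h (adjusted p 6e-06, limma). Cdc45, which joins the helicase as origins fire, was at 1.07 and 1.62 and then at 44.7 and 48.3. Both genes were near the floor at 6 h too, with 0.62 and 0.34 FPKM for Cdc6 and 1.26 and 1.18 for Cdc45. The helicase subunit genes started from higher resting levels: Mcm5 went from 10.9 and 10.5 to 129.6 and 133.8 FPKM, Mcm3 from 16.7 and 16.4 to 154.2 and 143.3, and Mcm7 from 46.7 and 46.4 to 180.3 and 175.8. Pcna, the sliding clamp, had the highest level of the list, 95.6 and 92.5 FPKM at rest and 659.5 and 681.8 at 48 h. The 9 members without a call included Orc3 and Orc4 of the origin recognition complex, which differed by at most 0.11 log2 units, and Rpa1, Cdt1, Gins4, Cdc7 and Rfc2, all with positive differences.

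Mitotic genes had the largest share of higher calls of any list, 55 of 58 higher, with median differences of 3.38 and 3.24. The list's median level was 0.77 and 0.88 FPKM at 0 h, 0.84 and 0.62 at 6 h, and 23.7 and 21.8 at 48 h. Aurkb, the kinase of the chromosomal passenger complex, stood at 0.35 and 0.29 FPKM and then at 71 and 62.8. Kif11, the motor that separates spindle poles, stood at 0.69 and 0.94 and then at 66.7 and 64.8. Nusap1 and Tpx2, both microtubule-binding spindle proteins, reached between 45 and 52.3 FPKM from 0.70 or less. Pttg1, the securin that restrains separase, was the exception: it fell from 40.1 and 39.3 FPKM to 15.3 and 17.5, a log2 difference of -1.23 (SE 0.079). With a pseudocount of 5 FPKM the call of Pttg1 was lost and the list median of the mean difference went from 3.31 to 2.0.

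The short promoter sequences of 5 genes of the cell cycle and ribosome lists are printed to show the motifs by which such genes are usually grouped. They were picked among higher members whose printed bases held the match, and members without it were passed over. That these 5 hold a match is therefore not a result. Each is the 250 bases before the start of the gene as RefSeq annotates it on GRCm38, read 5′ to 3′ on the plus strand, which is the coding strand of all 5 genes. Capitals mark a match. For Cdc6 (chr11:98907901-98908150) and Mcm5 (chr8:75109259-75109508) they mark E2F matches, TTTCCCGC, TTTGGCGC, TTTCGCGC or TTTGCCGC on either strand. For Kif11 (chr19:37376132-37376381) and Bub1b (chr2:118597961-118598210) they mark the cell cycle homology region (CHR), TTTGAA or TTCGAA, and the CCAAT box. For Nop2 (chr6:125131633-125131882), a nucleolar RNA methyltransferase gene, they mark the E-box CACGTG.
Cdc6: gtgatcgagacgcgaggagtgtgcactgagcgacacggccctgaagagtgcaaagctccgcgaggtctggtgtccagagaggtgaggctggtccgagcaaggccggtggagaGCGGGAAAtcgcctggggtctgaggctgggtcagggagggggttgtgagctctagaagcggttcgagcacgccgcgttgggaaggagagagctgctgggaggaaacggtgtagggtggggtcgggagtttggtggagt
Mcm5: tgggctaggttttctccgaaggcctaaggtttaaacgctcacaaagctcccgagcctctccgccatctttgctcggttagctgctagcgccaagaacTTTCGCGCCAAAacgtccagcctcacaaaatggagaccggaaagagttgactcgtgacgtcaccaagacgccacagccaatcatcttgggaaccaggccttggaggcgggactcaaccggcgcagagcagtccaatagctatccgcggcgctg
Kif11: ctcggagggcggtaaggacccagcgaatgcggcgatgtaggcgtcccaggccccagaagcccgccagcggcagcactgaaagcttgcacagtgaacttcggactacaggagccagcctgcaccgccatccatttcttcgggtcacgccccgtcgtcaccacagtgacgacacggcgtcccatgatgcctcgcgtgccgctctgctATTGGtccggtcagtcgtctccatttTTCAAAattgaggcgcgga
Bub1b: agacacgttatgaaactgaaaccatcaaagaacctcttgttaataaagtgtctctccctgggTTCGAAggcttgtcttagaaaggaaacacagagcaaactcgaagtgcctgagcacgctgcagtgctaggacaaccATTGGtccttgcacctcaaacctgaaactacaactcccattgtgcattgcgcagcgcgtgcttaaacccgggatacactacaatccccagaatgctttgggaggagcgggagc
Nop2: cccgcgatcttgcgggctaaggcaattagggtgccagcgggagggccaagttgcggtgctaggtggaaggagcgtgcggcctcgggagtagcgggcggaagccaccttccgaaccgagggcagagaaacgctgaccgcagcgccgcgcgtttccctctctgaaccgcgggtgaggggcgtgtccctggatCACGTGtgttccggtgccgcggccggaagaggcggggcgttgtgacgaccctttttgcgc

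The E2F match began 138 bases before the start in Cdc6, and 2 overlapping matches began 153 and 149 bases before it in Mcm5. In Kif11 the CHR match began 19 and the CCAAT match 45 bases before the start, and in Bub1b 188 and 113 bases before it. The CACGTG match of Nop2 began 60 bases before the start. Searched in the same way, on both strands of 300 bases around the start, E2F matches were held by 15 of 41 promoters of the replication list (36.6%), 7.7% of promoters of all higher genes, 2.5% of lower genes and 4.5% of all tested genes. CHR matches were held by 35 of 51 promoters of the mitotic list (68.6%), against 19.6% of higher, 12.9% of lower and 14.3% of all tested genes. CCAAT was also held by 68.6% of the mitotic list, and by 45.0% of higher, 40.1% of lower and 40.3% of all tested genes. It was not particular to mitotic genes: the endoplasmic reticulum list held it in 80.6% of promoters. CACGTG was held by 10 of 50 promoters of the ribosome biogenesis list (20.0%) and 10.7% of all tested genes, and the ETS-type CCGGAAGT by 26.0% of that list, 5.2% of lower genes and 9.8% of all tested genes. Over all 27025 promoters of the table, E2F matches were held by 2.3%, CHR by 19.4%, CCAAT by 37.9%, CACGTG by 7.2% and CCGGAAGT by 4.0%. Promoters were found for 80.9% of higher, 80.9% of lower and 81.2% of all tested genes. A match is a run of letters and does not show that a factor bound there.

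Among cyclins, cyclin-dependent kinases and their regulators, 26 of 41 tested genes were higher and 4 lower, with median differences of 2.46 and 2.41 (1.34 for the mean of the pairs and 2 lower genes with a pseudocount of 5 FPKM). Ccna2, cyclin A, stood at 0.43 and 0.53 FPKM and then at 82.7 and 75.8, and Cdk1, the kinase of mitotic entry, at 0.28 and 0.24 and then at 46.2 and 39.5. Ccnd2, the D cyclin that rose, went from 19.4 and 22.3 to 162.1 and 158.9 FPKM, while Ccnd3 was near 100 FPKM in all 4 libraries (101.1 to 114.2) and was not called. E2f1, an activator of S-phase genes, went from 1.43 and 1.41 to 25.5 and 24.7. The inhibitor genes moved in opposite directions. Cdkn1b, which encodes p27 of quiescent cells, fell from 157.3 and 155.5 FPKM to 31.2 and 33.4 (SE 0.06, adjusted p 8e-06, limma), whereas Cdkn1a, which encodes p21, rose from 1.07 and 1.47 to 59 and 65.2. Rb1, Rbl2 and Ccng2, pocket proteins of quiescent cells and an atypical cyclin, were the other lower genes.

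Chromatin and chromosome factors rose in part, with few lower calls. Of 20 cohesin and condensin genes 8 were higher and 1 lower, with median differences of 0.56 and 0.39. The condensin genes Ncapg, Ncapg2, Ncaph and Ncapd2 rose to between 25.5 and 97.8 FPKM. Smc4, a core subunit of the same complexes, fell from 318.4 and 330.4 FPKM to 141.1 and 137.9, a level that was still above its partner Smc2 (40 and 38.2 at 48 h, from 5.74 and 5.77). Of 36 homologous recombination and Fanconi genes 23 rose and 0 fell, with median differences of 1.42 and 1.58; with a pseudocount of 5 FPKM 14 rose. The list of Polycomb, DNA methylation and histone chaperone genes had 13 of 23 higher (56.5%) and 1 lower (4.3%), with median differences of 1.20 and 1.08. Ezh2, the histone methyltransferase of dividing cells, went from 9.78 and 11.2 to 78.7 and 73.4 FPKM, and Ezh1, its paralog, from 45.7 and 47.5 to 14.5 and 14.3. The maintenance methyltransferase gene Dnmt1 rose from 22.4 and 23 to 112.1 and 105.1.

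The growth machinery rose broadly, in contrast to the ribosomal proteins themselves. Myc, the growth-promoting transcription factor, was at 11.5 and 8.75 FPKM at rest, 166.3 and 185.1 at 6 h, and 98.8 and 87 at 48 h (8.48-fold at 48 h). Of 57 ribosome biogenesis and RNA polymerase I genes 37 were higher and 0 lower, with median differences of 1.41 and 1.27. Gar1, of the small nucleolar particles that guide pseudouridylation, went from 9.17 and 9.77 to 74.4 and 70.7 FPKM, and Rrp12, a factor of ribosomal subunit export, from 2.78 and 2.46 to 20 and 16.8. By contrast, of 82 cytosolic ribosomal protein genes 1 was called, and the list held 31.3% and 30.7% of the FPKM sum at 0 h and 28.7% and 29.5% at 48 h. That gene was Rps27l, a paralog of Rps27 known as a p53 target, from 19 and 21.7 to 135.5 and 142.3 FPKM. The median difference of the ribosomal protein list, 0.02 and 0.13, turned negative (-0.074 for the mean of the pairs) when libraries were rescaled to a common sum.

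Other translation genes rose in part. Of 19 cytosolic aminoacyl-tRNA synthetases, which charge tRNAs, 14 were higher, with median differences of 1.52 and 1.48, for example Aars from 13.6 and 12 to 69 and 66.3 FPKM. Of 64 initiation and elongation factors 19 were higher and 2 lower (medians 0.67 and 0.58). Eif5a, a factor that needs a polyamine-derived modification, went from 178.5 and 171.9 to 1027 and 912.4 FPKM. Eif4ebp1, a repressor of cap-dependent initiation, rose from 7.44 and 6.16 to 54.8 and 55.8. The lower genes were Pdcd4, an inhibitor of the initiation helicase, from 155.3 and 146.4 to 59.9 and 58.7, and Eif2ak3, the kinase PERK, from 18.3 and 21.3 to 6.04 and 5.33.

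Protein folding and turnover followed the same direction. Of 30 cytosolic chaperone genes 16 rose and 0 fell, with median differences of 1.22 and 1.13: Hsp90aa1, the inducible form of HSP90, went from 65.6 and 62.6 to 376.3 and 354.9 FPKM. Of 51 proteasome genes 24 were higher and 1 lower, with median differences of 0.98 and 1.01. Pomp, an assembly factor, went from 52.8 and 50.1 to 209.8 and 196.8, and the lower gene, Psme2b, has a near-identical copy. In the endoplasmic reticulum list 10 of 36 rose and 1 fell (Eif2ak3), with medians of 0.82 and 0.68, led by Sdf2l1, a component of chaperone complexes, from 2.77 and 2.34 to 36.4 and 34.6. Hspa5, the main chaperone of that compartment, went from 64 and 59.1 to 235.9 and 204.6. Nuclear transport had 14 of 34 higher (medians 0.91 and 0.78), with Kpna2, an importin, from 18.2 and 16.5 to 187.9 and 161.3, and splicing had 24 of 77 higher and 1 lower (medians 0.80 and 0.73). The lower gene was Srsf5, at -1.06 close to the 2-fold line.

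Of 24 tested glycolysis and lactate export genes 19 were higher and 0 lower, with median differences of 2.14 and 2.30. Its share of the FPKM sum went from 0.30% and 0.29% to 1.96% and 1.87%. Entry of glucose was covered by Slc2a1, the glucose transporter GLUT1, from 13.1 and 11.9 to 59.4 and 60.2 FPKM, and Hk2, an inducible hexokinase, from 0.08 and 0.16 to 18.6 and 16.9. Hk1, the hexokinase already present at rest (32.3 and 31.4 FPKM), reached 69.2 and 63.9. In the lower part of the pathway, Pgk1 went from 75.8 and 66 to 987.2 and 943.2, Pgam1 from 22.9 and 21.3 to 372.7 and 351.8, and Pkm from 179.8 and 170.5 to 1375 and 1345. Ldha, which makes lactate, went from 147.3 and 145.2 to 1014 and 921.3, and Slc16a3, a lactate exporter, from 3.08 and 2.79 to 86.4 and 87.5. At 6 h Slc16a3 was at 6.11 and 8.39 and Pgam1 at 84.6 and 81.5. Gapdh, which has many copies in the genome, reached 3103 and 3000.4 FPKM from 333.5 and 316.3. The members without a call were Gpi1, Pfkm, Pfkfb4, Eno3 and Ldhb.

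Mitochondrial lists had fewer calls. Of 36 genes of the TCA cycle, pyruvate entry and glutamine use 8 were higher (22.2%, against 16.4% of all tested), with median differences of 0.47 and 0.39, and 5 with libraries rescaled to a common sum. Of 61 respiratory chain and ATP synthase genes 22 were higher and 0 lower (0.87 and 0.82), among them Cycs, cytochrome c, from 16.8 and 18.7 to 66 and 67.9 FPKM. The mitochondrial ribosome had 23 of 78 higher (medians 0.80 and 0.87), led by Mrps6 from 14.5 and 15.1 to 93.6 and 96.3. Mitochondrial import had 16 of 34 (medians 0.86 and 0.94), with Hspd1, the matrix chaperonin, from 34.9 and 37.1 to 342.3 and 274.7. Fatty acid oxidation had 4 of 19 higher (21.1%, near the 16.4% of all tested) and 0 lower, with medians of 0.45 and 0.41. Cpt1a, its entry enzyme, was at 5.69 and 4.22 FPKM at rest and 8.64 and 9.15 at 48 h and was not called, since neither pair reached 2-fold.

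Of 16 serine and folate genes 12 rose and 0 fell, with median differences of 2.53 and 2.57. Psat1, of the serine synthesis pathway, went from 3.57 and 3.97 to 190.9 and 175.4 FPKM, and Phgdh, the first enzyme of that pathway, from 14.3 and 14 to 205.5 and 194.5. Shmt1 and the mitochondrial folate enzyme gene Mthfd2 reached 55.7 to 88.7 FPKM. All 4 were already between 57.3 and 202.7 FPKM at 6 h. Of 28 nucleotide synthesis genes 21 were higher and 1 lower, with median differences of 1.73 and 1.72. Cad, the multi-domain enzyme that starts pyrimidine synthesis, went from 3.95 and 3.74 to 35.1 and 31 FPKM. The ribonucleotide reductase subunit genes differed in direction: Rrm2 rose from 1.84 and 3.01 to 122.7 and 121.8, Rrm1 from 6.08 and 5.87 to 102.7 and 99.9, while Rrm2b, the subunit used by resting cells, fell from 12.4 and 12.5 to 2.32 and 2.26.

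**Figure D3:**
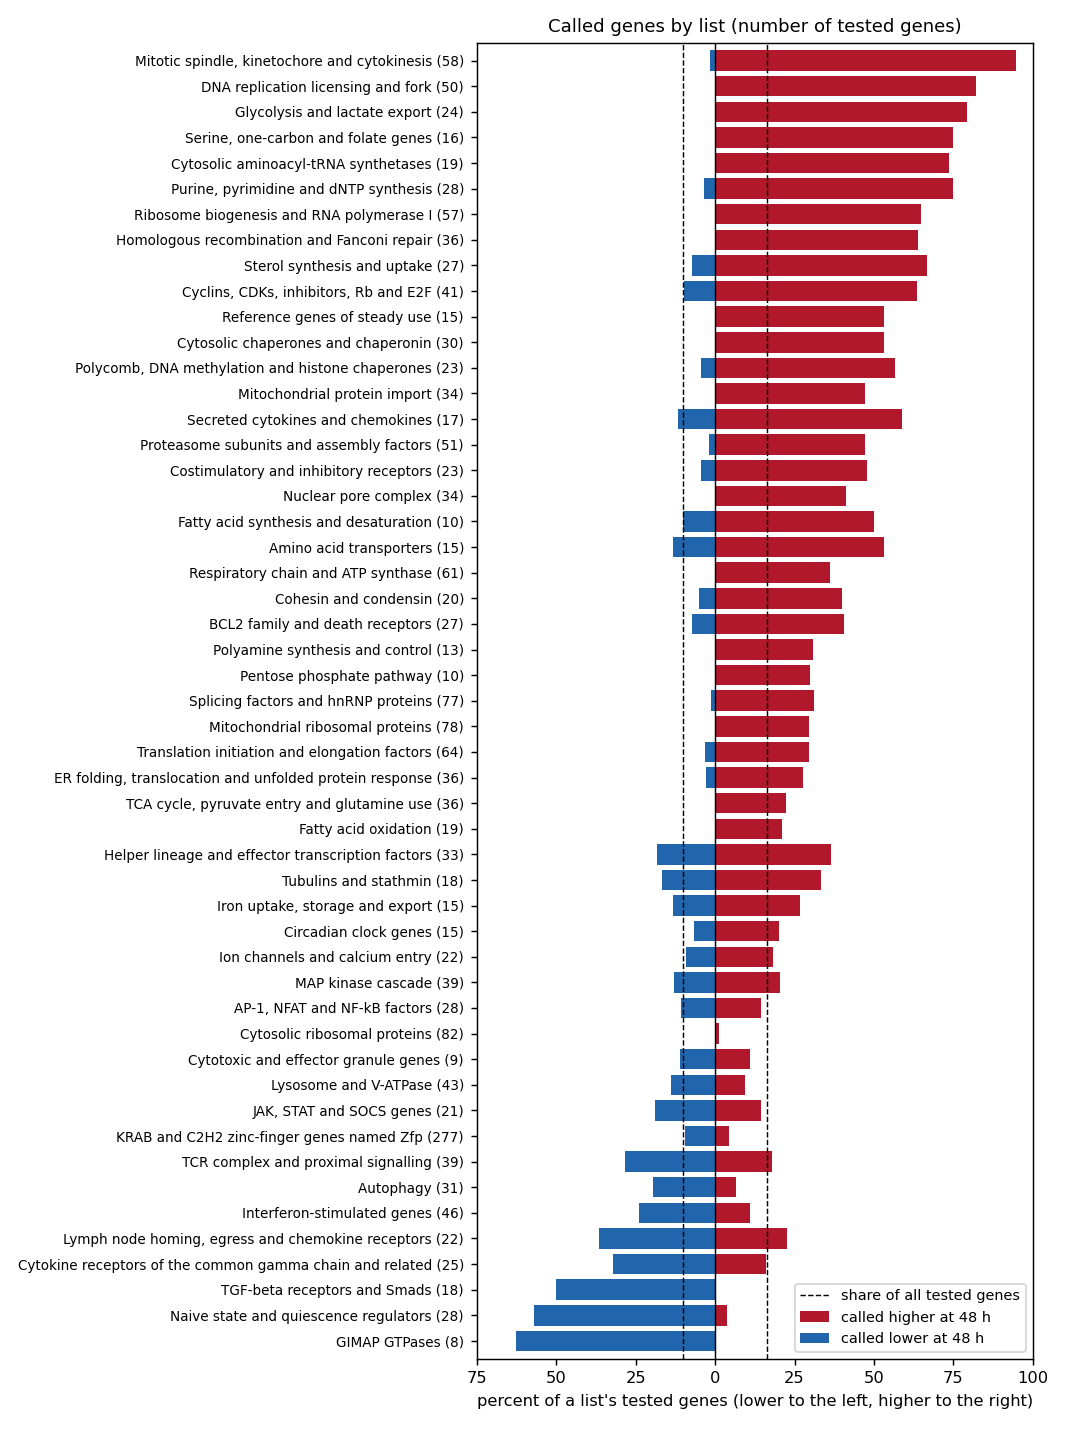
Percent of the tested genes of each list that were called higher (red, right) and lower (blue, left), with the number tested in brackets and dashed lines at the shares over all tested genes, 16.4% higher and 10.2% lower. Mitosis, replication and glycolysis stand at the top with 94.8%, 82.0% and 79.2% higher, and the GIMAP, naive state and TGF-beta lists at the bottom with 62.5%, 57.1% and 50% lower.

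Lipid synthesis and its export genes moved apart. Of 27 sterol genes 18 were higher and 2 lower, with median differences of 1.35 and 1.57. Cyp51 and Sqle, enzymes of late sterol synthesis, went from 2.77 and 2.41 to 50.2 and 50.2 FPKM and from 1.62 and 1.37 to 27.6 and 28.6. The lower genes were both cholesterol exporters: Abcg1 fell from 43.7 and 42.7 to 4.71 and 3.27 FPKM, and Abca1 from 4.42 and 4.24 to 0.16 in both. Of 10 fatty acid synthesis genes 5 rose and 1 fell, with medians of 0.97 and 0.93. The lower gene was Acss2, an acetyl-CoA synthetase, from 32 and 34.9 FPKM to 7.20 and 8.55. Those that rose included Fasn (10.9 and 10.8 to 45.1 and 41.2) and Acaca (3.39 and 3.01 to 14.7 and 13).

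Uptake genes for amino acids and iron rose in selected members. Of 15 tested amino acid transporters 8 were higher and 2 lower, with median differences of 1.04 and 1.16. Slc7a5, the light chain of the large neutral amino acid transporter, was at 5.38 and 5.39 FPKM at rest, 145.8 and 169.2 at 6 h and 86.9 and 84.2 at 48 h. Slc1a5 was at 59.1 and 57.4 and then at 299.5 and 293.6. The lower pair, Slc38a9 and Slc36a1, encode transporters of the lysosomal membrane, and both calls were lost with a pseudocount of 5 FPKM. Of 15 iron genes 4 were higher (26.7%, against 16.4% of all tested) and 2 lower (13.3%, against 10.2%), with medians of 0.27 and 0.22. With a pseudocount of 5 FPKM 2 were higher and 1 lower. With a common sum the median of the mean difference went from 0.237 to 0.124. Tfrc, the transferrin receptor, rose from 7.22 and 6.45 to 135.1 and 115.4 FPKM, whereas Fth1, the heavy chain of the iron store ferritin, fell from 730.3 and 727.8 to 293.1 and 301.1. In polyamine synthesis 4 of 13 rose (30.8%, against 16.4% of all tested) and 0 fell, with medians of 0.73 and 0.69. Srm, spermidine synthase, went from 6.77 and 6.51 to 104.2 and 100.1. Odc1, the ornithine decarboxylase, stood at 180.5 and 219.5 and then at 186 and 173 and was not called.

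In the lysosome list 6 of 43 genes were lower (14%, against 10.2% of all tested) and 4 higher (9.3%, against 16.4%), with medians of -0.21 and -0.23. In the autophagy list 6 of 31 were lower (19.4%) and 2 higher (6.5%), with median differences of -0.51 and -0.46, and with a pseudocount of 5 FPKM 1 was lower. Atp6v1d, a subunit of the proton pump, fell from 202.3 and 207.2 to 45.5 and 49.7 FPKM, and Atg2a, a lipid transfer protein of autophagy, from 42.8 and 41.9 to 12.5 and 12.6. Bnip3, a receptor of mitochondrial autophagy, went the other way, from 4.16 and 2.95 to 46.7 and 47.3.

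The genes that hold the naive state fell. Of 28 such regulators 16 were lower and 1 higher, with median differences of -1.17 and -1.19, and their share of the FPKM sum went from 0.93% in both resting libraries to 0.30% in both 48 h libraries. Klf2, the factor that keeps homing receptor genes on, fell from 317.3 and 311.7 FPKM to 31.3 and 45.5. Tcf7, a factor of naive and memory cells, fell from 1021 and 985.1 to 202.1 and 217.1, Lef1 from 362.1 and 340 to 108.2 and 104.7, and Foxo1 from 42.9 and 40.1 to 19.2 and 19.3. Levels thus stayed above 100 FPKM for Tcf7 and Lef1 at 48 h. Satb1, a chromatin organizer, fell from 372.6 and 382.1 to 59.4 and 50.8, and Tsc22d3, a glucocorticoid-induced regulator, from 127.8 and 142.4 to 12.4 and 15.7. Bach2 (46.4 to 53.9 FPKM in the 4 libraries), Foxp1 and Foxo3 were not called. The higher gene was Ddit4, an inhibitor of mTORC1, from 5.45 and 4.77 to 71.3 and 79.3.

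Of 22 homing and egress genes 8 were lower (36.4%, against 10.2% of all tested) and 5 higher (22.7%, against 16.4%), with medians of -0.11 and -0.12. S1pr1 was at 363.7 and 382.5 FPKM at rest, 172.4 and 158.3 at 6 h and 13.3 and 14.1 at 48 h. Ccr7, the chemokine receptor of lymph node entry, fell less, from 501.5 and 522.8 to 219.1 and 212 (log2 difference -1.24, SE 0.057). Cd44, low on the sorted cells as protein, rose from 1.82 and 1.5 to 11.6 and 9.67, and Itgal, the LFA-1 alpha chain, from 48.5 and 43.7 to 144.4 and 153.8. Ccr4, a receptor of tissue-homing helper cells, rose from 0.39 in both to 22.6 and 23.3. The egress antagonist Cd69 was at 17.1 and 12 FPKM at rest, 278.2 and 225.2 at 6 h and 83.8 and 73.1 at 48 h.

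Of the 8 GIMAP GTPase genes, which support survival of resting lymphocytes, 5 fell, with median differences of -1.71 and -1.75. Gimap3 went from 1287 and 1286 FPKM to 298 and 298.3, and Gimap4 from 1040.1 and 1038 to 281.9 and 269.8. Gimap5 had a positive difference without a call (35.6 and 41.5 to 61 and 70.1 FPKM).

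**Figure D4:**
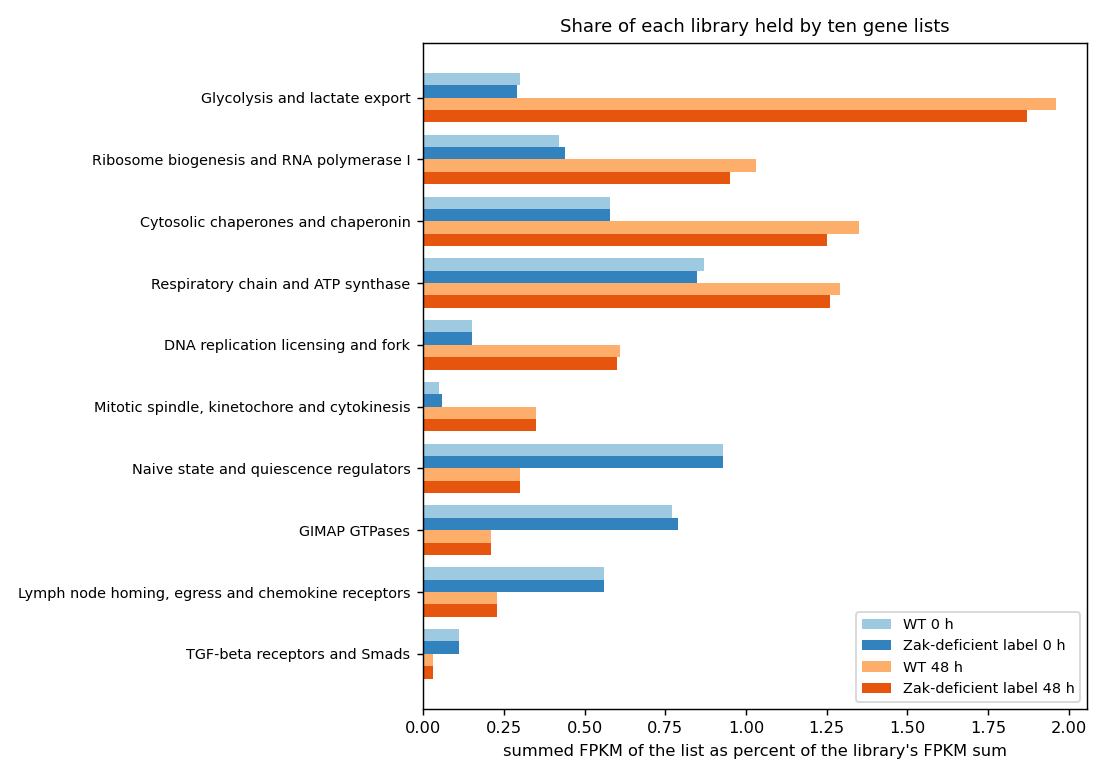
Summed FPKM of 10 gene lists as percent of the FPKM sum of each of the 4 libraries (light and dark blue for 0 h, light and dark orange for 48 h, WT above the Zak-deficient label). The glycolysis list moves from 0.30% and 0.29% to 1.96% and 1.87%, and the naive state list from 0.93% in both to 0.30% in both.

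Of 25 tested cytokine receptor genes 8 were lower (32.0%, against 10.2% of all tested) and 4 higher (16%, against 16.4%), with medians of -0.74 and -0.60. The lower set included Il7r, Ifngr1 (444.5 and 513.9 to 33.3 and 33.5 FPKM), Il6ra (62.9 in both to 13.4 and 14.1), Il4ra (106.8 and 120.4 to 47.8 and 45.6) and Il18r1 (18.5 and 22.2 to 2.33 and 2.25). All higher members were chains of receptors for IL-2, IL-12 and IL-15. Il2ra, the high-affinity chain for IL-2, went from 10.2 and 14.2 to 89.6 and 95.4 (SE 0.099, adjusted p 1.5e-05, limma), Il2rb from 9.76 and 11.1 to 63 and 65.3, Il12rb1 from 0.20 and 0.17 to 18.1 and 14.4, and Il15ra from 0.35 and 0.44 to 5.13 and 4.79. Il2rg, the shared gamma chain, was at 390.5 and 383.3 and then at 497.7 and 492.5 and was not called.

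Downstream of these receptors, Jak1 fell from 274.6 and 283.3 FPKM to 93.5 and 92.2 and Stat5b from 176.1 and 205.5 to 29.3 and 29.1, while Jak3, the kinase bound to the gamma chain, rose from 12.5 and 11 to 46.4 and 47.9. The list of JAK, STAT and SOCS genes had 4 of 21 lower (19.0%, against 10.2% of all tested) and 3 higher (14.3%, against 16.4%), with medians of -0.21 and -0.32. The higher count was 1 with a pseudocount of 5 FPKM and 5 without the 48 h library labelled Zak-deficient. The TGF-beta pathway, which restrains T cell growth, had 9 of 18 lower and 0 higher, with median differences of -1.10 and -1.09. Its receptor chain gene Tgfbr2 fell from 116.8 and 129.2 to 19.7 and 20.2, the mediators Smad4 and Smad3 from 59.7 and 58.8 to 18.1 and 19.4 and from 16.7 and 16.8 to 5.14 and 3.68. The inhibitor Smad7 fell further, from 55.2 and 55.7 to 3.59 and 4.10 (SE 0.077).

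Of 39 genes of the TCR complex and its proximal signalling 11 were lower (28.2%, against 10.2% of all tested) and 7 higher (17.9%, against 16.4%), with medians of -0.10 and -0.14. Cd3e was at 231 and 230.8 FPKM and then at 248.3 and 288.5, and Cd4 at 329.1 and 357.2 and then at 217.6 and 218.6, neither reaching 2-fold, and Lck and Lat differed by at most 0.14 log2 units. The zeta chain gene Cd247 fell from 364.8 and 318.1 to 89.8 and 96.1. Adaptor genes moved both ways: Grap2 fell from 168 and 171.1 to 31.9 and 27, Fyb from 304.8 and 329.5 to 72.1 and 64.5, and Lcp2 (SLP-76) rose from 51.8 and 51.6 to 244.9 and 228.7. The phosphatase gene Ptpn6 (SHP-1) rose from 21.3 and 19.8 to 150.4 and 150.1 and Cd5, a tuner of TCR signals, from 110.3 and 105.9 to 436.2 and 413.1. Dgka and Cblb, a lipid kinase and a ubiquitin ligase that dampen TCR signals, fell from 813.8 and 780.6 to 246.7 and 259.9 and from 104.4 and 121.8 to 40.1 and 37.3.

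Of 23 costimulatory and inhibitory receptor genes 11 were higher and 1 lower, with median differences of 1.25 and 1.03. On the costimulatory side Tnfrsf9 went from 4.65 and 5.72 FPKM to 100.8 and 105.7, with 285.3 and 307.4 at 6 h, Tnfrsf4 (OX40) from 49.6 and 53.1 to 145.2 and 127.5, and Icos from 20.7 and 21.9 to 55 and 54.8. On the inhibitory side Pdcd1 (PD-1) went from 6.13 and 7.38 to 93.3 and 97.2, Lag3 from 0.70 and 0.69 to 25.3 and 38.5, and Btla from 21 and 18.9 to 208.1 and 214.9. Cd200, a ligand of an inhibitory myeloid receptor, had the largest difference of the list, from 4.45 and 4.39 to 172.1 and 167.5 (SE 0.062). Ctla4 was at 52 and 67.9 and then at 70.4 and 61.2, and Cd28 at 114.1 and 118.4 and then at 157 and 159.9; neither was called.

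Of 36 secreted cytokine genes 17 passed the filter on low values. Of these 10 were higher (58.8%, against 16.4% of all tested) and 2 lower (11.8%, against 10.2%). The filter averages all 6 libraries, so members near 0 at rest could pass only through their 6 h and 48 h values. With no filter the list median of the mean difference went from 1.39 to 0.163. Il2, the T cell growth factor, was listed at 0.07 and 0 FPKM at rest, 12.1 and 8.65 at 6 h and 13.6 and 11.4 at 48 h. Tnf was at 2.95 and 1.76 and then at 40 and 35.7. Tnfsf14 (LIGHT) was listed at 0 in both resting libraries and at 7.59 and 8.93 FPKM at 48 h. Ccl3 and Ccl4, chemokines of activated T cells, and Xcl1 reached between 6.01 and 18.1 FPKM from 0.24 or less. Il16 and Ltb, expressed by resting cells, fell, Ltb from 460.1 and 412.7 to 191.3 and 184.1. Effector cytokines of helper subsets were too low to be tested: Ifng was at 0.23 and 0.05 FPKM at 48 h, Il4 listed at 0 in both, Il17a at 0 and 0.05.

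Of 33 tested transcription factors of helper lineages and effector cells 12 were higher and 6 lower, with median differences of 0.65 and 0.72 (3 lower with a pseudocount of 5 FPKM). Egr1, Egr2 and Egr3, immediate TCR-response factors, stood at 0.44 to 5.03 FPKM at rest and at 56.2 to 110.8 at 48 h. Irf4 was at 2.89 and 1.92 at rest, 208.8 and 235.1 at 6 h and 145.4 and 140.7 at 48 h. Nr4a1 was at 35.9 and 27.4, then 734 and 1010 at 6 h and 130.9 and 119 at 48 h. Of the lineage-defining factors, Tbx21 stayed at 0.15 to 0.52 FPKM in the 4 libraries and was too low to be tested, Gata3 was at 8.19 and 7.24 and then at 6.26 and 7.19, and Bcl6 at 7.67 and 6.98 and then at 5.60 and 5.88. Foxp3 was at 14.1 and 16 at rest and at 5.90 and 7.65 at 48 h, without a call. Klf6 (84.5 and 91.8 to 14.6 in both) and Ikzf3 (37.8 and 35.7 to 10 in both) led the lower side.

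Of 39 MAP kinase genes 8 were higher (20.5%) and 5 lower (12.8%), near the 16.4% and 10.2% of all tested genes, with medians of -0.05 and -0.03. The lower count was 2 with a pseudocount of 5 FPKM and 8 with a common sum. Dusp6, a phosphatase that acts on ERK, rose from 1.85 and 1.34 FPKM to 102.2 and 103.1, beside Spry1. Dusp10, a phosphatase of JNK and p38, the kinases downstream of Zak, fell from 58.8 and 76.2 to 10.3 and 10.5 (SE 0.10). The list of 28 AP-1, NFAT and NF-kB genes was also near the background, with 4 higher (14.3%) and 3 lower (10.7%) and medians of 0.09 and 0.13. Its called genes included Nfatc1 (31.5 and 31.1 to 102.1 and 108.1) and, on the lower side, Tnfaip3 (A20, an inhibitor of NF-kB) from 85.1 and 98.6 to 10.9 in both. The ion channel and calcium entry list had 4 of 22 tested genes higher (18.2%) and 2 lower (9.1%). These shares were near the background too, with medians of -0.09 and 0.23. Among its called members Orai1 rose from 32.9 and 32.6 to 79.1 and 90, and its paralog Orai2 fell from 70.2 and 66 to 19.4 and 19.3.

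Of 27 genes of the BCL2 family, caspases and death receptors 11 were higher and 2 lower, with median differences of 0.37 and 0.47, and with a pseudocount of 5 FPKM 6 were higher. The lower genes were Birc3, an inhibitor of apoptosis (91.4 and 85.5 to 40.6 and 38.2 FPKM), and Casp9, an initiator caspase (7.45 and 7.62 to 3.08 and 3.27). The protective genes Bcl2l1 and Bcl2 rose from 8.56 and 7.79 FPKM to 23.6 and 21.3 and from 9.27 and 7.72 to 20.7 and 19.3; the call of Bcl2, whose log2 difference was 1.15, ended when libraries were rescaled to a common sum, with a pseudocount of 5 FPKM, or without WT at 48 h or the Zak-deficient label at 0 h. Bcl2a1b reached 118.1 and 122.9 from 7.08 and 6.19, but it belongs to a cluster of near-identical copies. Pmaip1 (NOXA), a promoter of cell death, rose from 0.98 and 1.16 to 5.57 and 5.67. Bcl2l11 (BIM) was at 30.1 and 35.7 and then at 32.7 and 33.8.

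Of 46 interferon-stimulated genes 11 were lower (23.9%, against 10.2% of all tested) and 5 higher (10.9%, against 16.4%), with medians of -0.36 and -0.42. With a pseudocount of 5 FPKM 7 were lower and 3 higher, and without the 48 h library labelled Zak-deficient 8 were higher. Irf7, the master regulator of the type I response, fell from 17.9 and 15.6 to 0.98 and 1.02 FPKM, and Ddx58 (RIG-I) from 15 and 14.9 to 1.75 and 1.86. The guanylate-binding genes Gbp2 and Gbp5 rose, to 107.9 against 65.9 and 29 against 21.2 FPKM, from 12.2 and 11.2 and 2.58 and 2.51. Of 9 cytotoxic and granule genes 1 rose (11.1%, against 16.4% of all tested) and 1 fell (11.1%, against 10.2%), near or under the background. Gzmb rose, from 0 and 0.22 to 9.36 and 6.42, and Prf1 fell, from 6.18 and 6.56 to 0.87 and 0.65. With the filter at a mean of 5 FPKM 0 were higher and 0 lower. The 277 tested zinc-finger genes named Zfp had 26 lower (9.4%) and 12 higher (4.3%), shares at and under the background, and 5 lower and 4 higher with a pseudocount of 5 FPKM.

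Marker lists of other cells were low or carried by few genes. The NK cell list went from a sum of 43.5 and 41.1 FPKM to 4.4 and 5.7, of which Klrd1, a lectin receptor, made up 40.4 and 37.3 at rest and 0.92 and 0.87 at 48 h, while Ncr1 was at 0.09 or less in the 4 libraries. The stromal list went from 95.2 and 93.6 to 39.5 and 39.2, nearly all of it Pecam1 (94.4 and 92.6 to 38.5 and 38.1), which naive T cells carry as well, with Cdh5 at 0.18 or less. The myeloid list was between 42.5 and 47 FPKM in the 4 libraries, mostly Cst3, while S100a8 and S100a9, neutrophil genes, fell from 3.47 to 4.41 FPKM to between 0 and 0.60. The regulatory T cell list went from 235.8 and 259.7 to 429.7 and 441.3 FPKM. Of 8 tested members 4 were higher (Il2ra, Capg, Gpr83 and Nrp1), against 16.4% of all tested genes. Ikzf2 was lower, against 10.2% of all tested. Most of the rise of the sum came from Il2ra (10.2 and 14.2 to 89.6 and 95.4) and Capg (52.5 and 48.1 to 135 and 149). Foxp3, given above, also stood lower at 48 h in both genotypes, without a call. The sum therefore does not stand for each marker. The part of these cells in the results above was not tested.

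The genes whose response differed most between the pairs were of another kind. Transcripts typical of liver were present in 5 libraries and all but absent from the 48 h Zak-deficient library: Mup2 was at 23.9 and 25.8 FPKM at rest and at 32 and 0.16 at 48 h, and Alb at 8.39 and 8.64 and then at 13 and 0. Mup11 and Apoc1 followed the same order (13.2 against 0 and 13.4 against 0 FPKM at 48 h). Il11, Smco1, Gje1 and Nkain3 stood higher in that library: Il11 was at 11.3 and 24.6 FPKM at rest and at 2.22 and 92.7 at 48 h. With adjusted p between 0.14 and 0.99 (limma), none of these met the call. Without the 48 h library labelled Zak-deficient the fitted difference of Il11 was -2.46, and without that of WT it was 2.40. Tmem254b and Tmem254c, which ran in opposite order over the libraries, are near-identical copies, as are the Mup genes.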

How the data were processed

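RNA-seq was measured in naive CD4+ T cells of 2 genotypes at 3 times, with 1 library each, and the 4 libraries at 0 h and 48 h were compared. The authors deposited 1 table of FPKM values for 18446 genes. Per the submitters' processing notes, Bowtie, RSEM and the mm10 genome build were used, with no tool version given in the sources used here. FPKM keep no read counts, so the depth is unknown and no count test or counting interval was possible. Symbols were matched for 18326 gene IDs, and 120 had none.

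Values were taken as log2(FPKM+1), and a gene was kept where its mean over the 6 libraries reached 1 FPKM. limma 3.58.1 (R 4.3.3, with an intensity trend) fitted time with genotype as the block, and p-values were adjusted by Benjamini-Hochberg over all 10347 genes. The genotypes served as pairs because the labels give each genotype its own 0 h and 48 h library. Same-numbered replicates do not exist. A call needed an adjusted p under 0.05 and 2-fold in the same direction in both pairs. Lists are described by their counts and, for most, their median, to be read against the shares and medians of all tested genes. The procedure was checked on simulated data with known changes in a small part of the genes and the same noise for every gene. In the real data most genes passed the adjusted p, so the check does not measure the error rate of these calls. Promoter matches were counted in RefSeq promoters of GRCm38. Tables and figures were made with Python 3.11.15, numpy 2.4.6, pandas 2.3.3 and matplotlib 3.10.9.

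The members and gene lists were chosen with earlier results of these data known. Named genes were, by rule, the 15 with the largest smaller-of-pairs difference each way at a mean of 5 FPKM or more, up to 4 leading and 2 contrary members of each list, the 5 genes that differed most between pairs each way, and defining genes of each pathway. Further list members, such as Mcm3, Hk1, Ccnd2 and Btla, were named as context after their values were seen. The genes with printed promoters were picked for holding the match. Gene models and near-identical copies were passed over or called uncertain, and some genes of the table are not reported here. Alternatives changed the pseudocount, filter, scaling, fold rule, model and libraries.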

Additional observations from a re-analysis of the deposited data

Results flagged for a closer look

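For 6 of the genes compared, the WT and the Zak-deficient pair moved in opposite directions by at least 2-fold between 0 h and 48 h. The values are the log2 difference of the Zak-deficient pair minus that of the WT pair. With 1 pair per genotype this difference was not tested. For Tmem254c it was 6.45 and for its near-identical copy Tmem254b -5.20. The other genes were Il11 (3.80), a cytokine gene of stromal tissues, Smco1 (3.09), Gje1 (2.19) and Apoc4 (-2.27), an apolipoprotein gene of the liver. Apoc4 stood at 0.76 and 1.16 FPKM at 0 h and at 2.94 and 0 at 48 h (WT, then the Zak-deficient label).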

How the results depend on the processing

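The fold rule set the number of calls. At 1.5-fold in each pair 2687 genes were higher and 2145 lower, at 4-fold 557 and 193, and with the adjusted p alone 4159 and 3798. A pseudocount of 5 FPKM left 586 lower genes. Without the replicate block (the genotype pairs) 1699 were higher and 1051 lower, and leaving out 1 library at a time gave 1714 to 1769 higher and 1092 to 1160 lower genes, on the assumption that the lone library of a side varied like the others. Rescaling to a common sum shifted the median of all genes by -0.107 and left 53.6% of calls higher, against 61.8%. Of 287 named called genes, 33 lost the call with a pseudocount of 5 FPKM, among them Foxo1, Pttg1, Prf1, Abca1 and Ikzf2, and 5 with a common sum. Some list medians changed sign: ribosomal proteins were at -0.074 with a common sum, ion channels at -0.066 with a common sum, -0.001 with median-ratio scaling and -0.054 to 0.22 over left-out libraries, and cytotoxic genes at 0.05 with no filter and -0.086 to 0.089 over left-out libraries. Over left-out libraries Gje1 ranged from -1.46 to 1.47, Il11 from -2.46 to 2.40 and Smco1 from -2.29 to 1.72. Homologous recombination genes called higher went from 23 to 14 with a pseudocount of 5 FPKM. The cause of these changes was not tested, and the unknown depth limits what can be said of genes near 0.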

Other observations

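Several genes often used as steady references were themselves called: 8 of 15 were higher at 48 h, including Actb (867.1 and 845.4 to 2002 and 2056 FPKM, WT then the Zak-deficient label) and Hprt, Ppia, Gusb, Gapdh, Pgk1 and Tfrc. B2m, Tbp, Ywhaz, Sdha, Polr2a and Rpl13a were among those not called.

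In the tubulin list 6 of 18 genes were higher (33.3%, against 16.4% of all tested) and 3 lower (16.7%, against 10.2%), with medians of 0.28 and 0.16. Stmn1, a microtubule-destabilizing protein, went from 116.8 and 108.1 FPKM to 678.8 and 716. The lower genes Tubb2a, Tubb2b and Tuba1a have near-identical copies. Of 15 tested clock genes 3 were higher (20.0%) and 1 lower (6.7%), near the 16.4% and 10.2% of all tested genes.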
